A study of Mus musculus with 22 samples.

Results

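The genes described here encode nuclear subunits of respiratory complexes II and III and of the ATP synthase, though not all of them, with cytochrome c and 3 assembly factors of complex III. They were chosen by platform symbol alone, as Sdha, Sdhb, Sdhc, Sdhd, Cyc1, Cycs, Bcs1l and every symbol that starts with Uqcr, Uqcc or Atp5, and 32 of the 18524 genes on the array met the rule. Each gene was read from its brightest probe in the gastrocnemius of 22 mice. All were C57BL/6N males aged 8 to 12 weeks, labelled non-diabetic, whose femoral artery had been removed to make the hindlimb ischemic, and all received a locked nucleic acid (LNA) oligonucleotide intraperitoneally at 12 mg/kg on day 5 and gave the muscle on day 7. In 11 mice the oligonucleotide was directed against miR-210 (ANTI-210) and in 11 it was a scrambled sequence (SCR), so the comparison asks what blocking miR-210 did in a muscle already ischemic. No muscle without ischemia and no uninjected muscle was analysed here, and whole muscle holds fibres, vessels and infiltrating cells together.

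Complex II, succinate dehydrogenase, takes electrons from succinate in the tricarboxylic acid (TCA) cycle and hands them to ubiquinone. Complex III passes them from ubiquinol to cytochrome c while it pumps protons, and the ATP synthase lets the protons flow back through a rotating c ring that drives ATP synthesis in its F1 head. Mitochondria are dense in the oxidative fibres of skeletal muscle, and fibres that degenerate after ischemia lose them. miR-210 is the microRNA best known for its induction by hypoxia, and published targets in other cells include the complex II anchor Sdhd and assembly factors of respiratory chain iron-sulfur clusters.

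The mature miR-210 blocked in this study is shown because its seed, bases 2 to 8 in capitals, is the stretch that pairs with target messages. Its position in RefSeq is chr7:141221407-141221428 on the minus strand of GRCm38.p6.
mmu-miR-210-3p: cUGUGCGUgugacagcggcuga

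Promoter sequences (RefSeq, GRCm38.p6) were found for 26 of the 32 genes, and not for Sdhc, Cyc1, Uqcrc2, Uqcrq, Atp5a1 and Atp5mpl. Each was searched from 250 bases before to 50 bases after the start, on both strands, for the cores of factors known to act on mitochondrial genes. NRF1 and ERR, the nuclear receptor that works with PGC-1α, are the classic examples. The NRF1 core GCGCATGCG lay in 6 of the 26 promoters (23.1%) and in 1.95% of those of 27025 genes. The ERR site CAAGGTCA lay in 3 of 26 (11.5%) against 1.76%. For the ETS factor GABPA, CCGGAAGT was found in 4 of 26 (15.4%) against 4.31%, and for YY1, AAGATGGC was found in 4 of 26 (15.4%) against 3.19%. The SP1 box GGGCGG was common in both, at 46.2% and 38.2%. These are matches of letters and do not show that a factor was bound.

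The 250 bases before the start are printed for 4 genes, with NRF1 or ERR letters in capitals. Cycs and Atp5g2, at chr6:50566570-50566819 and chr15:102671048-102671297, hold an NRF1 core. Atp5l, at chr9:44920743-44920992, holds both. Atp5g3, at chr2:73911327-73911576, holds an ERR site. All 4 lie on the minus strand and are written 5′ to 3′ along the gene. Cycs was chosen because it followed Sdhb most closely from mouse to mouse, Atp5g3 because it did so least, Atp5l because it holds both motifs and Atp5g2 as another c subunit gene beside Atp5g3. Where the match reads on the opposite strand, the capitals show its reverse complement.
Cycs: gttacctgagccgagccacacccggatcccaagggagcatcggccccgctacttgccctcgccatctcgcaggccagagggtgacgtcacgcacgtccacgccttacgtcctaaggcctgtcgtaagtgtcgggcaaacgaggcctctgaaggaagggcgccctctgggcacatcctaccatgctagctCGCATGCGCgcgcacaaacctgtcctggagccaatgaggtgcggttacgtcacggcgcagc
Atp5g2: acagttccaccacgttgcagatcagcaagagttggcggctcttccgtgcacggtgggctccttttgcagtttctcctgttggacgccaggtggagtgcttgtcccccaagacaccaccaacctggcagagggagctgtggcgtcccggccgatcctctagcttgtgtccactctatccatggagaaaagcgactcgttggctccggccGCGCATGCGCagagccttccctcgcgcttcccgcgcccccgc
Atp5l: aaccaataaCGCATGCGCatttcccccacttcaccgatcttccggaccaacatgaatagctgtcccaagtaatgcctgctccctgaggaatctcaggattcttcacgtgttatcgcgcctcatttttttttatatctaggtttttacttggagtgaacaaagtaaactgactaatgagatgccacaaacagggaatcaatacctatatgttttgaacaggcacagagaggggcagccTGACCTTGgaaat
Atp5g3: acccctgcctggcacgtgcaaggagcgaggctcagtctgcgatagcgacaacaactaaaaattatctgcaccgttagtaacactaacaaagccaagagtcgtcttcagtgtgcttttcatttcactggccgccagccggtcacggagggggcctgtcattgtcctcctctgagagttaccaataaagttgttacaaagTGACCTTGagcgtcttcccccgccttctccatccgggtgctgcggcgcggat

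None of the 32 genes passed the test of ANTI-210 against SCR muscles. By limma over all probes, 0 were higher and 0 lower at an unadjusted p under 0.05, the threshold of the study's methods, where 1.45% of all genes were higher and 2.01% lower. The methods' t-test also gave 0 in each direction, and 0 of the 52 probes of these genes passed. Differences are log2 intensity of ANTI-210 minus SCR throughout. They ran from -0.16 to 0.07 with a median of -0.03, beside -0.0036 over all genes, and 21 were below 0 and 11 above. The 95% intervals reached from -0.75 to 0.47, that is from 0.594-fold to 1.38-fold, and 29 of the 32 lay within 0.5 of 0 on both sides. Adjusted over all 38563 probes, 2 probes passed in the whole experiment and 0 of them belonged to these genes.

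Values over all arrays together lie between 4.35 and 15.4, and a probe with a mean under 6 was taken as near the floor. Sdha (mean 4.77) and Uqcrfs1 (mean 5.00) were near it, so their levels and differences are of limited use, though their messages are well known to be abundant in muscle. The Sdha probe still varied with other genes from mouse to mouse, as given below. The other 30 genes were above. The number of arrays limits the precision, and levels of different genes are not set against each other because each comes from its own probe.

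Among the complex II genes, Sdhb, the iron-sulfur subunit, ran from 12.01 through a median of 13.01 to 13.36 in SCR mice. In ANTI-210 mice it ran from 12.02 through 12.85 to 13.20. The groups overlapped over nearly their whole range, and the difference of -0.06 ± 0.17 (SE) had a limma p of 0.742. Sdhd, the anchor subunit reported elsewhere as a miR-210 target, had a lowest value of 9.33, a median of 10.31 and a highest of 10.91 in SCR mice. In ANTI-210 mice these were 9.06, 10.25 and 11.09. Both the lowest and the highest Sdhd values of the experiment were in ANTI-210 mice, with a difference of -0.05 ± 0.24 (SE, limma p = 0.842) and a 95% interval from -0.54 to 0.45. The second anchor, Sdhc, differed by -0.04, and the flavoprotein gene Sdha, near the floor, by 0.0036.

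Of the 8 complex III genes, 6 had differences below 0 and 2 above. Cyc1, which encodes cytochrome c1, ran from 11.76 through 12.73 to 13.11 in SCR mice and from 11.90 through 12.60 to 12.85 in ANTI-210 mice. Its difference was -0.12 ± 0.15 (SE, limma p = 0.410). The hinge protein gene Uqcrh ran from 14.03 through 14.57 to 14.72 in SCR mice and from 14.22 through 14.59 to 14.73 in ANTI-210 mice, a difference of 0.07 ± 0.07 (SE, limma p = 0.340). The ranges overlapped and the medians were nearly equal. The core subunit genes Uqcrc1 and Uqcrc2 differed by -0.11 and -0.06, and the supernumerary subunit genes Uqcr10, Uqcr11 and Uqcrq by -0.03, -0.04 and -0.0055. Uqcrfs1, the Rieske protein gene near the floor, differed by 0.02.

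Cycs, the carrier between complexes III and IV, ran from 11.99 through 13.38 to 13.69 in SCR mice. In ANTI-210 mice it ran from 12.07 through 13.35 to 13.59, and the difference was 0.01 ± 0.22 (SE, limma p = 0.957). In both groups most mice sat close to the top, and SCR mice 6 (11.99) and 7 (12.13) and ANTI-210 mouse 11 (12.07) lay far below them. The other Cycs probes, both dimmer, differed by -0.12 and -0.08. Bcs1l, which inserts the Rieske protein, ran from 9.16 through 9.62 to 9.85 in SCR and from 9.09 through 9.46 to 9.80 in ANTI-210 mice. Its difference of -0.08 ± 0.10 (SE) had the smallest p of the assembly factors, at 0.438 by limma. The cytochrome b assembly genes Uqcc1 and Uqcc2 differed by -0.04 and -0.01.

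In the F1 head and central stalk of the ATP synthase, the smallest p of all 32 genes belonged to Atp5b, the catalytic beta subunit (limma p = 0.313). Its values ran from 15.07 through 15.18 to 15.40 in SCR mice and from 15.07 through 15.15 to 15.21 in ANTI-210 mice, for a difference of -0.03 ± 0.03 (SE). The group ranges overlapped, and a single SCR mouse held the 15.40. Atp5e, the epsilon subunit, had the most negative difference, -0.16 ± 0.20 (SE, limma p = 0.424), with values from 8.87 through 9.28 to 9.89 in SCR and from 8.35 through 9.35 to 10.13 in ANTI-210 mice. Here the ANTI-210 median was the higher one and the mean the lower one. The alpha, gamma and delta genes Atp5a1, Atp5c1 and Atp5d differed by 0.02, -0.05 and -0.09.

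The peripheral stalk holds the head still against rotation, and 3 of its 4 genes had differences above 0. Atp5o, the oligomycin sensitivity protein, differed by 0.04 ± 0.06 (SE, limma p = 0.544), with a range from 14.27 through 14.67 to 14.82 in SCR and from 14.47 through 14.68 to 14.76 in ANTI-210 mice. Atp5pb, Atp5j and Atp5h differed by 0.06, 0.04 and -0.0009.

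Among the c ring and membrane genes, Atp5k (subunit e) had the smallest p, 0.521, with a difference of -0.09 ± 0.14 (SE). It ran from 7.59 through 8.32 to 8.74 in SCR and from 7.82 through 8.31 to 8.77 in ANTI-210 mice. The other Atp5k probe, near the floor with a mean of 5.78, differed the other way, by 0.20 (limma p = 0.444). Atp5md, which encodes the small membrane subunit DAPIT, had the widest spread of all, from 8.11 through 8.97 to 9.87 in SCR and from 7.66 through 8.86 to 10.11 in ANTI-210 mice. The ANTI-210 mice spanned the SCR range on both sides, so the difference of -0.16 ± 0.29 (SE, limma p = 0.586) carried the widest interval, -0.75 to 0.44. Atp5g2 and Atp5g3, 2 of the genes for the c subunit, differed by 0.02 and 0.02, Atp5j2 by -0.03, Atp5l by 0.04 and Atp5mpl by -0.02. The c subunit genes encode near-identical proteins, and whether their probes share target sequence was not tested.

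**Figure D1:**
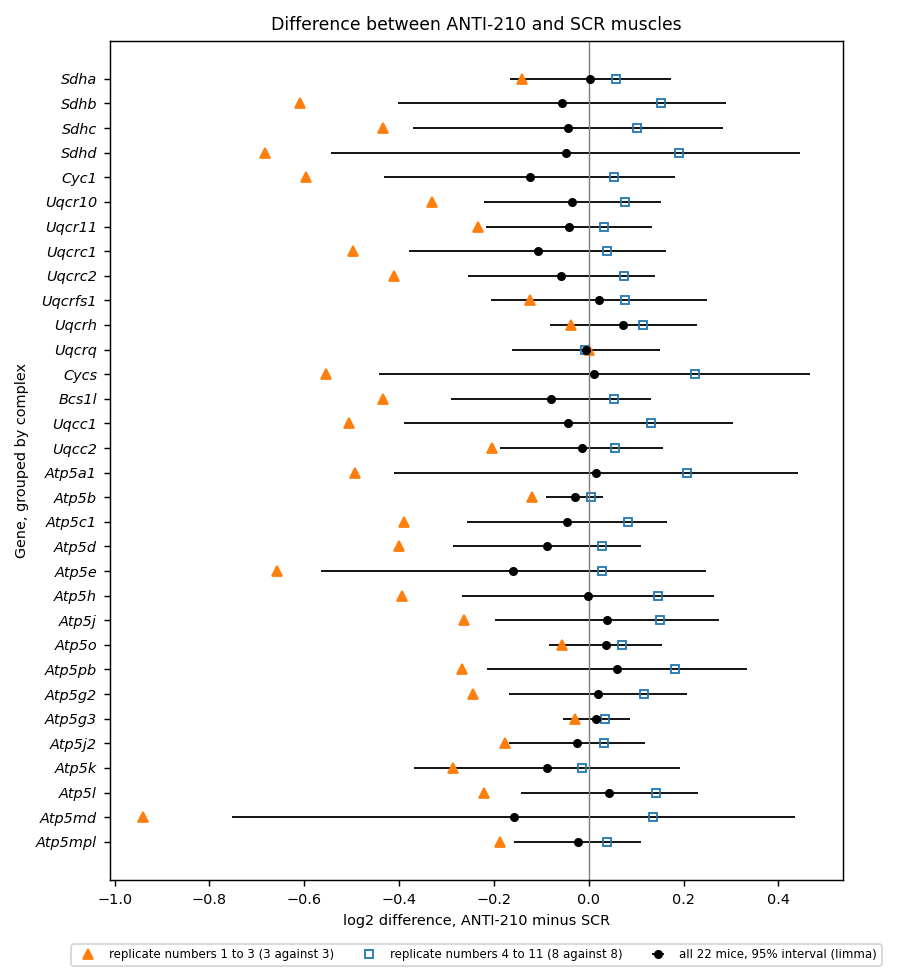
Log2 difference, ANTI-210 minus SCR (x axis), for each of the 32 genes (y axis, grouped by complex). Black points and bars are the difference over all 22 mice with its 95% interval, which includes 0 for every gene. Orange triangles are the differences among mice with replicate numbers 1 to 3, from -0.94 to 0, and blue squares those among numbers 4 to 11, from -0.01 to 0.22.

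The mice differed far more from each other than the groups did. Over 22 mice the standard deviation of a gene ran from 0.065 for Atp5b to 0.683 for Atp5md, whose highest and lowest mice lay 2.45 log2 units apart. Among the 30 genes above the floor the median SD was 0.241, beside 0.277 for the 8828 genes of the array above the floor, of which 41.4% had a smaller SD than 0.241. By probe, the 11 genes with a mean of 14 or more had a median SD of 0.178, and the 19 between the floor and 14 a median of 0.322, though dim probes could also spread little (Uqcrq, SD 0.176). The top of the scale is 15.4, close to the means of Atp5b (15.17) and Atp5g3 (15.13), and compression of their range there was not tested.

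The same mice were low for most genes. SCR mouse 6 held the lowest value of 19 of the 32 genes, and ANTI-210 mouse 11 that of 7, with ties counted for the mouse listed first, SCR before ANTI-210. ANTI-210 mouse 11 shared the lowest value of Uqcc2 and Uqcrc1 with SCR mouse 6, and that of Sdha with ANTI-210 mouse 8. SCR mouse 6 also shared that of Atp5b with ANTI-210 mouse 4 and that of Uqcrfs1 with SCR mouse 7. For 11 genes the 5 lowest mice were SCR 6, 7 and 8 with ANTI-210 3 and 11. Averaged over the 32 genes, after each gene's mean was taken off, SCR mice lay between -0.49 and 0.22 with a median of 0.14, and ANTI-210 mice between -0.50 and 0.27 with a median of 0.01. Low mice were thus present in both groups. In whole muscle, fewer mitochondria-rich fibres and less of these messages per fibre cannot be told apart.

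**Figure D2:**
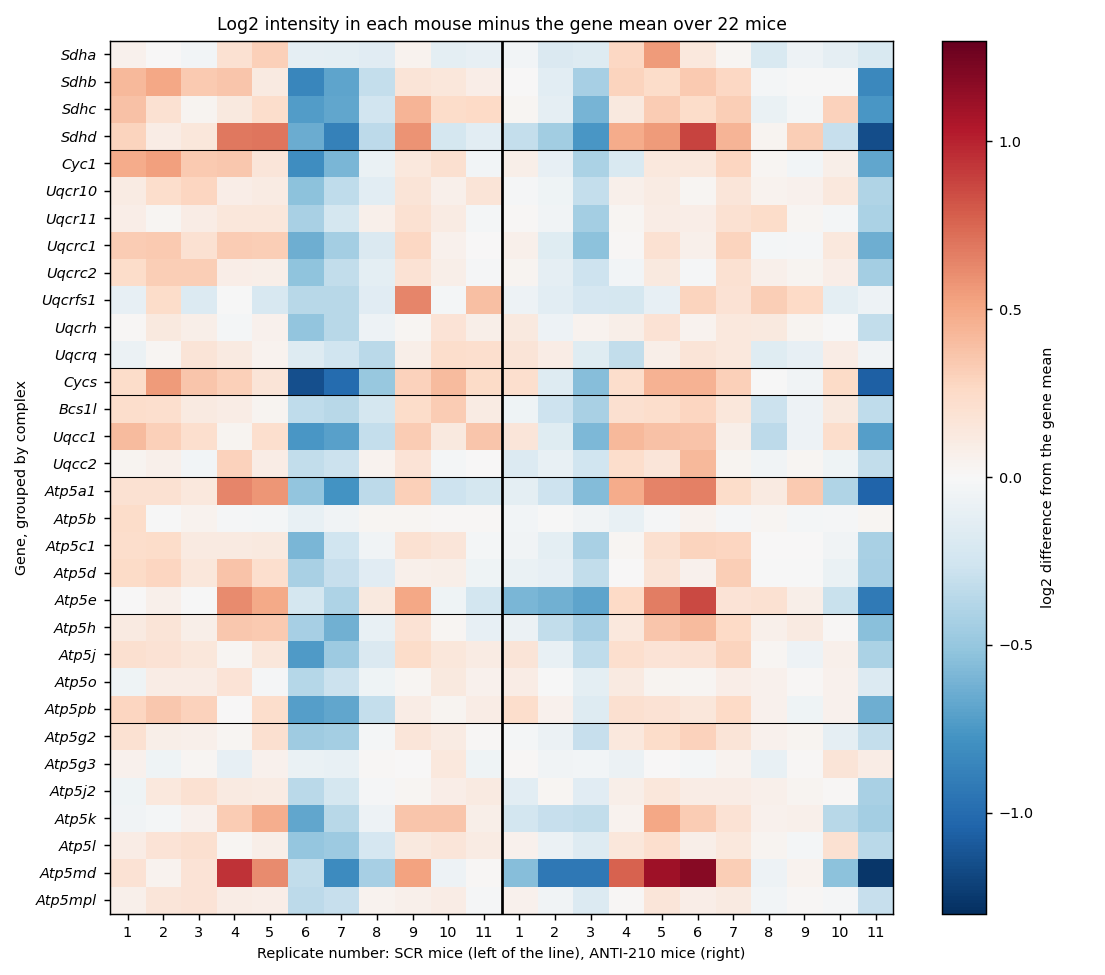
Log2 intensity of the 32 genes (rows, grouped by complex) in each of the 22 mice (columns, SCR left and ANTI-210 right of the line), as the difference from the mean of the gene over all mice, red above and blue below. SCR mice 6 and 7 and ANTI-210 mouse 11 are low over most rows, and the rows of Atp5b and Atp5g3 (SD 0.065 and 0.077) stay near white.

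Relations across mice were computed against Sdhb, chosen after the values were seen because the planned Sdha lies near the floor, in a family of 38. Over 22 mice, 23 of the other 31 genes had a Pearson r over 0.8 with Sdhb and 13 over 0.9, the median r was 0.877, and 29 had an adjusted permutation p under 0.05. Cycs followed it most closely (r = 0.96, rho = 0.86), with a permutation p of 1e-05 for both, the smallest that the permutations can give, and adjusted p of 1.65e-05 for r and 5.43e-05 for rho. Pairs of p below are likewise for r and then rho. Of the other 12 genes over 0.9, Uqcrc1 (r = 0.94, rho = 0.88) and Cyc1 (r = 0.93, rho = 0.87) of complex III and Atp5c1 (r = 0.93, rho = 0.88) of the ATP synthase are given as examples, each with a permutation p of at most 2e-05 for r and rho. Without the 2 mice farthest from the median, SCR 6 and ANTI-210 11, the median r was 0.835 and that of Cycs 0.93. Within the groups the median r was 0.888 in SCR and 0.895 in ANTI-210 mice. Arrays of 1 mouse share its RNA and hybridisation, so genes on them are not independent of each other.

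The exceptions were few. Atp5g3 had an r of 0.09 with Sdhb (rho = 0.06, permutation p = 0.693 and 0.807, adjusted p = 0.693 and 0.807) and Atp5b of 0.36 (rho = 0.34, permutation p = 0.106 and 0.121, adjusted p = 0.109 and 0.124), and both are the brightest probes of the set. Uqcrfs1 (r = 0.44, rho = 0.36, permutation p = 0.0406 and 0.0991, adjusted p = 0.0428 and 0.105) and Sdha (r = 0.54, rho = 0.76, permutation p = 0.01 and 9e-05) are near the floor. Uqcrq had an r of 0.48 (rho = 0.42, permutation p = 0.0226 and 0.0495, adjusted p = 0.0245 and 0.0537) and Atp5e of 0.65 (rho = 0.60, permutation p = 0.0011 and 0.0038). The probe used for Uqcrq had a mean of 8.55 and its other probe one of 4.92, near the floor. Which of them reads the message better was not tested.

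Genes outside the set that mark fibre and mitochondrial content moved the same way from mouse to mouse. Cs, citrate synthase of the TCA cycle, had an r of 0.93 with Sdhb (rho = 0.87, permutation p = 1e-05 for both). Myh4, the fast IIb myosin, had an r of 0.92 (rho = 0.79, permutation p = 1e-05 and 3e-05). Ppargc1a, the gene of the coactivator PGC-1α, had an r of 0.84 (rho = 0.73, permutation p = 2e-05 and 0.00019), and Ckm, muscle creatine kinase, of 0.76 (rho = 0.67, permutation p = 5e-05 and 0.00096). Lgals3, galectin-3 of macrophages, ran the opposite way, with an r of -0.84 (rho = -0.80, permutation p = 1e-05 for both). Col1a1, a collagen of fibroblasts, did so too, with an r of -0.82 (rho = -0.82, permutation p = 1e-05 and 3e-05). Endothelial and adipocyte genes were not set against Sdhb, so this does not extend to other cells in general. Hmox1, the heme-degrading stress enzyme, had an r of -0.68 (rho = -0.48, permutation p = 0.00083 and 0.027), which was -0.43 without the 2 farthest mice. All of these relations passed adjustment over the family. The part of fibre and infiltrate content in these relations was not tested. Myh3 and Cd68 were planned as partners and are not analysed here.

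**Figure D3:**
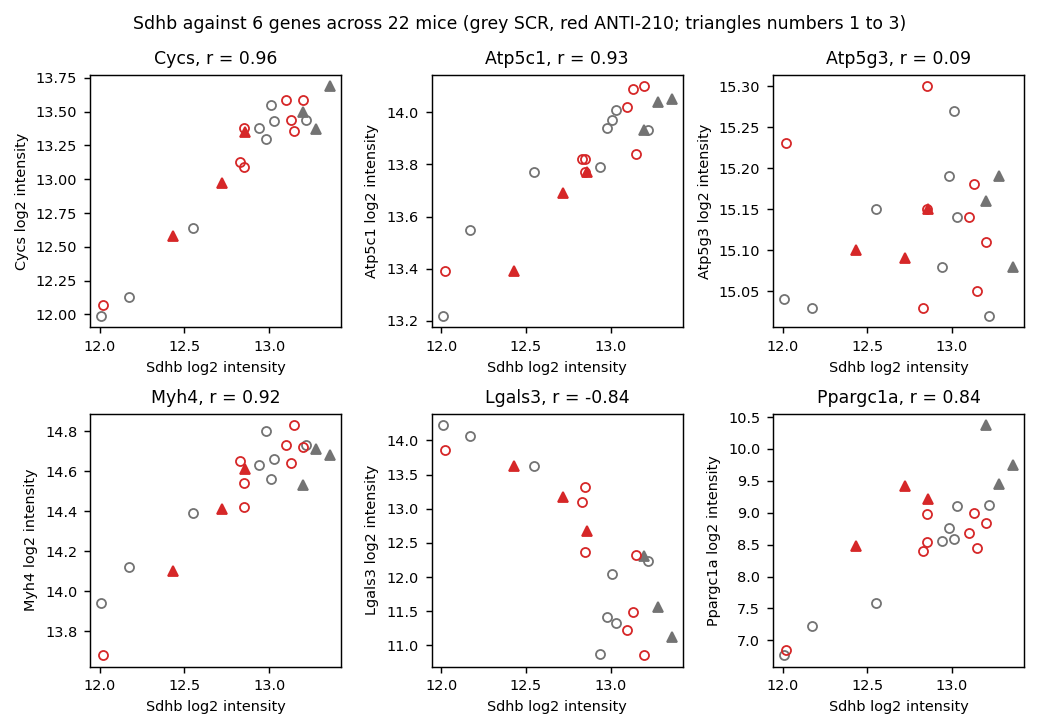
Sdhb log2 intensity (x axes) against that of 6 genes (y axes) in each of 22 mice, grey for SCR and red for ANTI-210, with triangles for replicate numbers 1 to 3. Cycs (r = 0.96), Atp5c1 (0.93), Myh4 (0.92) and Ppargc1a (0.84) rise with Sdhb, Lgals3 falls (-0.84) and Atp5g3 shows no slope (0.09).

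Relations were also computed against Atp5md, picked after its spread was seen. The closest genes were Sdhd (r = 0.94, rho = 0.96), Atp5e (r = 0.94, rho = 0.91) and Atp5a1 (r = 0.93, rho = 0.93), each with a permutation p of 1e-05 for r and rho and adjusted p of 3.8e-05 and 4.75e-05 in a family of 38. Atp5h (r = 0.89, rho = 0.93), Uqcc2 (r = 0.89, rho = 0.89) and Atp5k (r = 0.83, rho = 0.80) came after them in r. Next in r was Sdha, near the floor (r = 0.82, rho = 0.89). The same genes also followed Sdhb, with an r of 0.83 for Sdhd, 0.65 for Atp5e, 0.83 for Atp5a1, 0.88 for Atp5h, 0.80 for Uqcc2, 0.74 for Atp5k, 0.54 for Sdha and 0.74 for Atp5md itself, and the difference between the pairs of r was not tested. The sets of replicate numbers described below differed in level in opposite directions: the mean of Atp5md was 8.59 in numbers 1 to 3 and 9.05 in numbers 4 to 11, that of Atp5e 8.97 and 9.39, and that of Sdhb 12.98 and 12.82. Atp5md was highest in ANTI-210 mice 6 (10.11) and 5 (10.03) and SCR mouse 4 (9.87), all of numbers 4 to 11, and Sdhb in SCR mice 2 (13.36) and 1 (13.28), both of numbers 1 to 3. Within numbers 4 to 11 alone the r with Atp5md was 0.95 for Sdhd, 0.94 for Atp5e and 0.83 for Sdhb, and Ppargc1a reached 0.71 with Atp5md and 0.95 with Sdhb. Over all mice Ppargc1a had an r of 0.39 with Atp5md (rho = 0.33, permutation p = 0.0757 and 0.134, adjusted p = 0.0846 and 0.149). The r with Atp5md was 0.92 for Sdhd and 0.92 for Atp5e without the 2 farthest mice, ANTI-210 6 and 11.

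**Figure D4:**
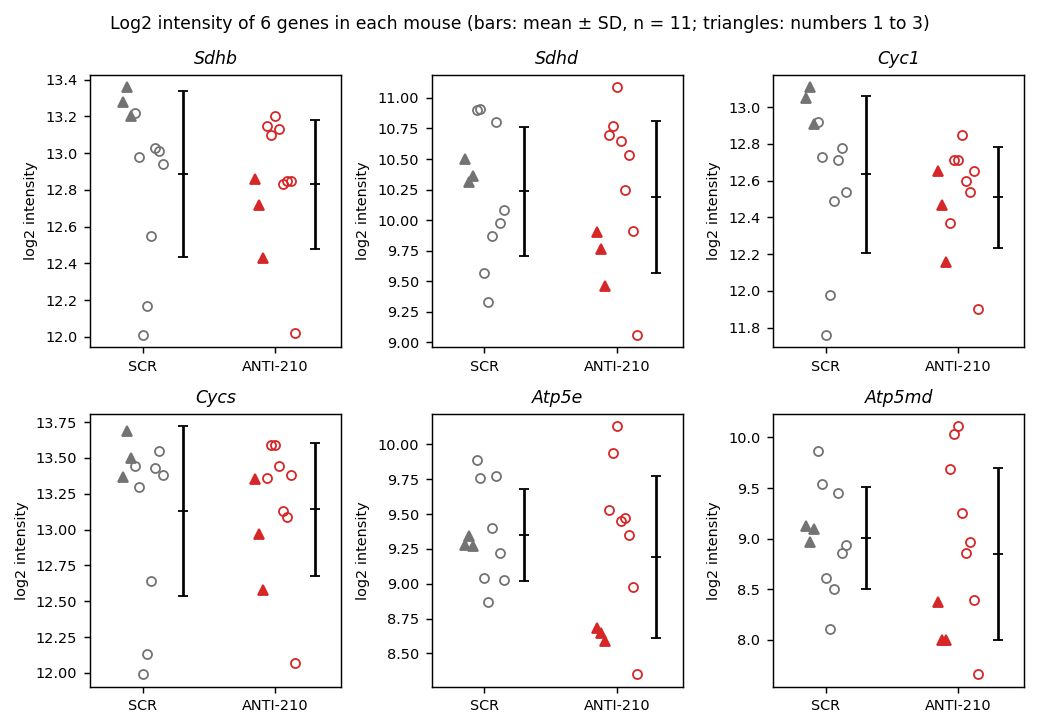
Log2 intensity of Sdhb, Sdhd, Cyc1, Cycs, Atp5e and Atp5md in each mouse, SCR in grey and ANTI-210 in red, with the mean ± SD of 11 mice beside each group. Filled triangles are replicate numbers 1 to 3, where the ANTI-210 values of all 6 genes lie below those of SCR, and open circles are numbers 4 to 11, where the groups mix.

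Earlier results of these data set mice with replicate numbers 1 to 3 apart from numbers 4 to 11 in both groups, and the labels name no batch, so values within each set are a description. Among numbers 1 to 3, 31 of the 32 genes had the lower mean in ANTI-210 mice and Uqcrq a difference of 0. At an unadjusted p under 0.05 by limma 21 of 32 were lower, where 17.1% of all genes were, and 11 after adjustment over all probes, where 7.93% were. In 23 genes all 3 ANTI-210 values lay below the 3 SCR values, as they did in 19.0% of all genes. These shares, and that for the interaction below, are over 18524 genes, of which 8828 were above the floor. Of the 32 genes 30 were above it, and shares over genes above the floor alone are not given here. With 3 mice against 3 the exact permutation test cannot go below p = 0.1. The median of the 32 differences was -0.31.

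The largest of these differences was that of Atp5md, -0.94, with means of 9.06 in SCR and 8.12 in ANTI-210 mice. Sdhd fell by 0.68 from 10.39 to 9.71, Atp5e by 0.66 from 9.30 to 8.64 and Sdhb by 0.61 from 13.28 to 12.67, each with an exact p of 0.1, the smallest possible, and a limma adjusted p over all probes between 0.0161 and 0.0291. Cyc1 differed by -0.60 and Cycs by -0.55. Uqcrh, Atp5o and Atp5g3 hardly moved, at -0.04, -0.06 and -0.03. Their probes are bright (means 14.54, 14.64 and 15.13), and bright probes spread less between mice, as given above. Uqcr10, also bright (mean 14.59), differed by -0.33, and the part of brightness was not tested.

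Among numbers 4 to 11, with 8 mice against 8, 30 of the 32 genes had the higher mean in ANTI-210 mice and 0 passed the threshold. Differences ran from -0.01 for Atp5k to 0.22 for Cycs, with a median of 0.08, and the smallest exact permutation p was 0.239 (Atp5l, difference 0.14). Sdhb had means of 12.74 in SCR and 12.89 in ANTI-210 mice, and Sdhd of 10.18 and 10.37. The difference between the sets' effects was tested as an interaction in limma. It passed an unadjusted p under 0.05 in 7 of 32 genes (Sdhb, Cyc1, Uqcr10, Uqcrc2, Bcs1l, Atp5c1 and Atp5d), where 12.2% of all genes did, and in 0 after adjustment (smallest adjusted p 0.444, Uqcrc2). The median r with Sdhb was 0.909 over the 16 mice of numbers 4 to 11. Over the 6 of numbers 1 to 3 it was 0.933, where 23 genes, Sdhb among them, separate the groups, which in itself gives a high r. In the genes without that separation the r there ran from 0.26 for Uqcrq to 0.90 for Atp5j. It was 0.36 for Uqcrh, 0.58 for Atp5o and 0.86 for Sdha.

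Marker lists of other cell types moved with this contrast among numbers 1 to 3. The score of a list is its mean log2 deviation from each gene's own mean. For 13 macrophage genes, of which 1 was near the floor, it averaged -0.32 in SCR and 0.63 in ANTI-210 mice, for 9 fibroblast and matrix genes -0.43 and 0.81, and for 8 genes of regenerating fibres -0.49 and 0.61. Mature fibre markers, 19 genes, averaged 0.14 and -0.02, and 7 slow oxidative fibre markers 0.18 and -0.60. The bright macrophage genes Lgals3 and Lyz2 were 1.49 and 1.47 higher and the matrix genes Col1a1 and Dcn 1.71 and 0.08 higher in those ANTI-210 mice. The brightest regenerating fibre genes, Myh8 and Actc1, were 0.34 and 1.08 higher, and the adipocyte genes Adipoq and Cidec 0.54 and 0.92 higher. The score of 7 adipocyte genes, 4 of them near the floor, averaged 0.09 in SCR and 0.39 in ANTI-210 mice, with a median difference of 0.27. The brightest mature fibre probes, Myl1 and Tnnc2, reach the top of the scale at 15.4 and give no usable difference, while the dimmer Pygm, Ldb3, Myot and Tcap of the same list differed by -0.77, -0.57, -0.54 and -0.43. The median difference of the 19 mature fibre genes in numbers 1 to 3 was -0.06, so these dimmer genes, picked after values were seen, do not stand for the list. Of the slow fibre genes, the bright Tnnt1 and Atp2a2 differed by -0.26 and -0.17, Myh7, Myl2 and Myl3 by -1.95, -1.89 and -1.70, and Tnni1 and Tnnc1 by 0.35 and 0.17. The score of 10 endothelial genes averaged -0.19 in SCR and 0.08 in ANTI-210 mice, with Esam, Cdh5, Eng, Emcn and Pecam1 at 0.56, 0.55, 0.53, 0.50 and 0.28, and Flt1 and the near-floor Kdr at -0.08 and -0.04. Among numbers 4 to 11 the macrophage score averaged -0.07 and -0.04 the matrix score -0.03 and -0.12, and the slow oxidative score, turned, -0.10 and 0.26. Over all mice the macrophage score ran from -1.31 to 1.32 in SCR and from -0.84 to 1.11 in ANTI-210 mice. The part of these cells in the differences above was not tested.

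The rest of the pathway gave the same counts. Of the genes of complex I, 0 of 34 measured (1 near the floor) passed the threshold in either direction, with a median difference of -0.05. For complex IV it was 0 of 14 (median -0.02), for other assembly and accessory factors 0 of 19 (median -0.02, 6 near the floor) and for the TCA cycle 0 of 12 (median -0.03, 1 near the floor). Among numbers 1 to 3 their medians were -0.40, -0.40, -0.27 and -0.46, and among numbers 4 to 11 they were 0.12, 0.09, 0.06 and 0.12, beside -0.31 and 0.08 for the 32 genes. Of the marker lists, beside 1.45% of all genes higher and 2.01% lower, the slow oxidative, regenerating, macrophage and fibroblast lists had 0 members past the threshold and the mature fibre list had 1 of 19, Eno3, muscle enolase, at 0.08. The adipocyte list had 1 lower gene of 7, Retn, near the floor at -0.08. The endothelial list had 4 of 10, all higher: Emcn (0.21), Cdh5 (0.25), Tek (0.19) and Esam (0.17). The median difference of the 10 endothelial genes was 0.23 among numbers 1 to 3 and 0.05 among numbers 4 to 11.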

How the data were processed

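RNA of 1 gastrocnemius per mouse was hybridised to Illumina MouseWG-6 v2 BeadChips. Per the study's methods the authors took bead summaries from GenomeStudio, applied quantile normalization and filtered probes with beadarray, and the deposited values are log2 intensities (base inferred from their range). Versions and filter thresholds: not given in the sources used here. Groups and replicate numbers came from the labels. Each gene was read from the probe with the highest mean; 32093 of 38563 probes carry 1 symbol, 16 several and 6454 none. Differences were fitted with limma 3.58.1 (lmFit and eBayes, R 4.3.3) on all probes, two-sided, without covariates, and adjusted by Benjamini-Hochberg over all probes. Correlations used 100000 permutations (Python 3.11.15, numpy 2.4.6). The fit was tested on simulated data. All members are named, with full values for those with the smallest p of each role, the widest and narrowest spread, and Sdhd; of the lists, genes past the threshold (at most 4), the 2 brightest markers and the partners of the relations are named. Full values of Cyc1 and Atp5e, Sdhb and Atp5md as references, dimmer list genes (Pygm, Ldb3, Myot, Tcap, Myh7, Myl2, Myl3, Tnni1, Tnnc1, Eng, Pecam1, Kdr), the mice named and the printed promoters were picked after values were seen. The members and gene lists were chosen with earlier results of these data known. Alternatives were other normalizations, moderation, array weights, covariates, probe choices, the replicate block, the sets of replicate numbers and leaving out each mouse.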

Additional observations from a re-analysis of the deposited data

How the results depend on the processing

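The count of 0 higher and 0 lower genes held under renormalization (quantile again, cyclic loess, median centring), trended and robust moderation, array weights, brighter probes, averaging the probes of each gene, the methods' t-test and leaving out each of the 22 mice. With the mature fibre marker mean as a covariate 1 gene was higher (Uqcrh, 0.07) and 1 lower (Uqcrc1, -0.11), and with the first principal component, which holds 63.6% of the variance, 3 were higher (Atp5j 0.10, Atp5l 0.09, Uqcrh 0.11). The shares of all genes called with these covariates are not given here, so nothing is drawn from these counts. In numbers 1 to 3 alone 21 were lower and the median difference was -0.31, and 5 genes changed sign and passed: Atp5a1 (-0.49), Atp5g2 (-0.24), Atp5l (-0.22), Atp5pb (-0.27) and Cycs (-0.55). The median difference was 0.08 in numbers 4 to 11, 0.02 with the first principal component, -0.10 under array weights and between -0.07 (without SCR 6) and 0.02 (without ANTI-210 11) with 1 mouse left out. Its sign also turned without ANTI-210 3, at 0.01. Over single genes 60 of 446 alternative values turned sign. The cause was not tested. The replicate block left 0 higher and 0 lower genes and a median of -0.03. Same-numbered mice had correlated deviations from -0.758 to 0.765, over 0.1 in 4 of 11 pairs, and 1 mouse matched its own number best. No pairing by number was seen in these correlations, and smaller effects shared by same-numbered mice were not tested. Against the planned Sdha, 21 of 31 genes had an adjusted permutation p under 0.05, against Sdhb 29 and against Atp5md 27, the latter both chosen after seeing the data. Signal near the floor limits Sdha and Uqcrfs1.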
